A study of Arachis hypogaea with 15 samples.

Results

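The nuclear genes for chloroplast ribosomal proteins of cultivated peanut (Arachis hypogaea) were followed across shoot apex, petiole and leaflets. They were taken as the rows of the expression table whose best protein match was named a 30S or 50S ribosomal protein and was marked chloroplastic. Of 59878 rows, 113 met this rule. Of these, 3 lay in a pair of chromosome segments that were not analysed here, which left 110 rows. The small subunit (30S) contributed 39 rows for 14 protein names, and the large subunit (50S) contributed 71 rows for 25 protein names. In 4 cases a row repeated the position and values of another row, so that the 110 rows stand for 106 positions. The names come from the authors' protein matches and no experiment on these proteins is part of the data.

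The series holds 15 RNA sequencing libraries, 3 for each of 5 groups, described by its submitters as biological replicates. One group was the shoot apex of a mutant with pentafoliate defects, and the wild type (WT) gave its shoot apex, its petiole, and its terminal and lateral leaflets. All plants were 40 days old and were grown under 16 h of light and 8 h of dark at 22 °C and 70% relative humidity. The labels name neither the mutated gene nor the number of plants per library, so differences of background or harvest between mutant and WT cannot be told apart from the mutation, and p-values measure the spread between these libraries. Expression is given as FPKM (fragments counted per length of transcript and scaled to the size of the library), which is a level per length.

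Chloroplasts translate their own small genome with a ribosome of the bacterial type. Its RNAs and some of its proteins are encoded in the plastid, whereas most of its proteins are encoded in the nucleus, made in the cytosol and imported. Each ribosome holds a small subunit that reads the messenger RNA and a large subunit that forms the peptide bond. A few of its proteins are known as plastid-specific ribosomal proteins. In leaves these ribosomes make core subunits of the photosystems and the large subunit of Rubisco, and the demand is known to peak while leaves green and expand.

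The tissues were checked against marker genes. The 48 shoot apex markers were knotted-1, CUP-SHAPED COTYLEDON and related names. Their summed level was 448 to 452 FPKM in mutant apex and 331 to 344 in WT apex, against 66.6 to 67.7 in petiole. It was 134 to 139 in terminal leaflet and 142 to 146 in lateral leaflet. The knotted-1 names were not limited to class I KNOX genes, and knotted-1-like 13 had 21.3 FPKM in terminal and 25.5 in lateral leaflet. By the test described below, 23 of 36 tested apex markers were higher in WT apex than in leaflets and 8 lower. The shares of all genes were 35.3% and 44.3%. The summed level of 48 mesophyll markers (Rubisco small subunit, Rubisco activase and chlorophyll a-b binding proteins) was 5864 to 6086 FPKM in mutant apex, 5404 to 5743 in WT apex, 8946 to 8955 in petiole, 25634 to 27789 in terminal leaflet and 21191 to 21689 in lateral leaflet. In these bulk samples, fewer green cells and less RNA per cell cannot be told apart. Replicates correlated across genes at 0.988 to 0.990. A depth of roughly 17.3 to 18.9 M fragments per library was read from the steps between low values, which were not sharp.

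The genes formed a steep gradient from apex to blade. Their summed level was 2338, 2256 and 2226 FPKM in the mutant apex libraries, 1958, 2006 and 2047 in WT apex, 4123, 4233 and 4227 in petiole, 13276, 12843 and 13070 in terminal leaflet, and 12915, 13058 and 13218 in lateral leaflet. The libraries of the apex groups, the petiole and the leaflets did not overlap, and those of the 2 leaflet groups did. The median row stood at 16.8 FPKM in mutant apex, 14.5 in WT apex, 30.5 in petiole, 98.7 in terminal leaflet and 101 in lateral leaflet. As a share of all FPKM in a library the rows held 0.392% ± 0.00915 in mutant apex, 0.349% ± 0.00743 in WT apex, 0.702% ± 0.00968 in petiole, 2.11% ± 0.0390 in terminal leaflet and 2.14% ± 0.0257 in lateral leaflet (SD, n = 3 each).

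The large subunit carried the steeper gradient, as a description. The 30S sum averaged 712 ± 9.73 FPKM in mutant apex, 651 ± 32.5 in WT apex, 1157 ± 18.9 in petiole, 3156 ± 58.2 in terminal leaflet and 3114 ± 40.7 in lateral leaflet. The 50S sum averaged 1561 ± 48.4, 1353 ± 12.4, 3037 ± 63.8, 9908 ± 225 and 9949 ± 162 FPKM in the same order of groups (SD, n = 3 each). The ratio of the 50S to the 30S sum was 2.16 to 2.23 in mutant apex, 1.99 to 2.16 in WT apex, 2.57 to 2.72 in petiole, 3.06 to 3.26 in terminal leaflet and 3.13 to 3.28 in lateral leaflet. Mutant and WT apex libraries met at the edge of their ranges in this ratio, whereas apex, petiole and leaflets were apart. The sums and their ratio were not tested.

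**Figure D1:**
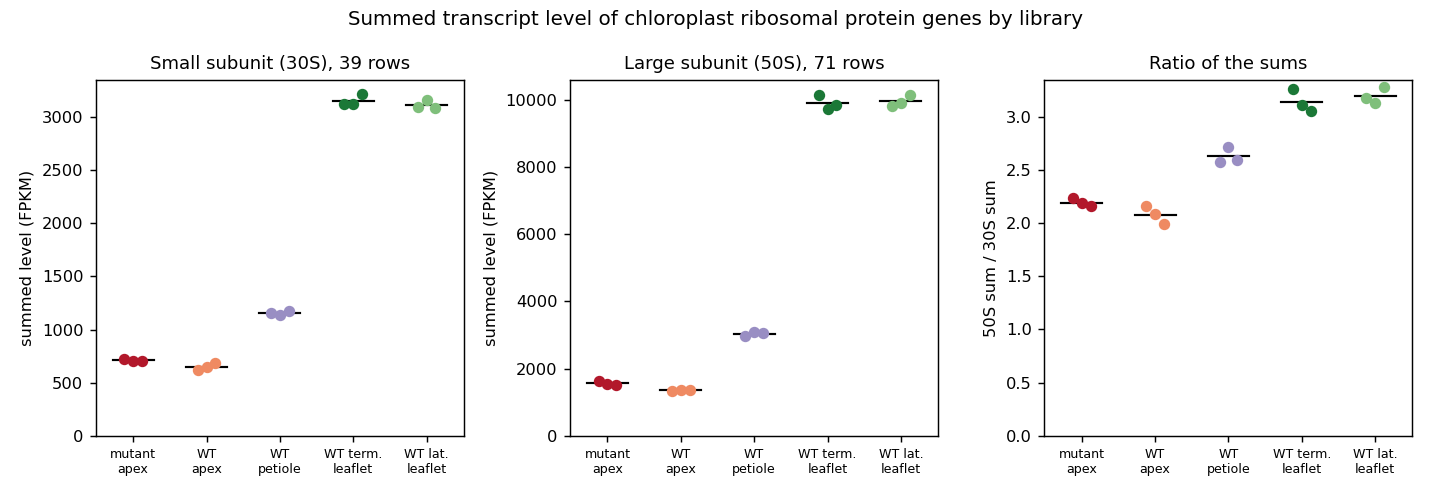
Summed FPKM of the 30S rows (left), of the 50S rows (middle) and the ratio of the 50S to the 30S sum (right) by group. Each point is 1 library, lines are means of 3, and all axes start at 0. The leaflet libraries lie at 3087 to 3223 FPKM for 30S and 9719 to 10156 FPKM for 50S, and the ratio lies between 1.99 and 2.23 in the apex groups and between 3.06 and 3.28 in leaflets.

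A linear model (limma) was fitted on log2(FPKM + 1) over all 15 libraries, after leaving out genes that reached 1 FPKM in fewer than 3 libraries. A gene counts as called where the p-value adjusted by Benjamini-Hochberg over all 39031 tested genes was under 0.05. Of the 110 rows, 102 could be tested (36 of 30S and 66 of 50S). The other 8, which are 2 rows of S13, 1 of S2, 1 of L15, 2 of L27 and 2 of L9, reached at most 0.69 FPKM in any library. Among the 102, 95 were at 1 FPKM or more in every WT apex library, 94 in every petiole library, 99 in every terminal leaflet library and 100 in every lateral leaflet library, so a few rows entered the test through the leaflets alone and could hardly show anything but a fall towards the apex. Log2 changes below are on the log2(FPKM + 1) scale, which understates changes of low rows, with SE for the standard error. Near-identical copies in the A and B subgenomes of this allotetraploid, and neighbouring copies, can share reads, which makes single copies less certain than the sum over a protein.

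In the comparison of WT apex with the leaflets, which sets the tissue that initiates leaves against the green blade, ribosomal protein transcripts of the chloroplast were lower in the apex for almost the whole set. L4, a protein that lines the peptide exit tunnel in bacterial ribosomes, L24, which starts assembly of the large subunit, L5, which binds 5S rRNA, and L29, which sits at the tunnel exit, fell furthest. Of the 102 rows, 94 were lower in WT apex than in leaflets, against a background of 44.3% of all genes called lower, and 3 were higher, against 35.3%. The median row changed by -2.62, compared with -0.09 over all genes tested, and 84 rows were called lower by at least 2-fold on the fitted scale, against a background of 14%. The median was -2.23 for the 36 tested 30S rows and -2.81 for the 66 tested 50S rows. Of the 38 proteins with a tested row, 32 had every tested row lower in WT apex.

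The L4 row with the largest fall, arahy.MB6FU1.1 (chromosome 9, 8143517 to 8146130, the extent of the gene as the deposited table gives it, whose identifiers have the form used for the peanut Tifrunner genome), stood at 9.77, 10.2 and 9.44 FPKM in WT apex, against 188, 186 and 186 in terminal leaflet and 183, 184 and 186 in lateral leaflet. Apex and leaflet libraries were far apart and the leaflet libraries lay within a few percent of each other. Its log2 change was -4.11 (SE 0.0365, limma adjusted p = 3.46e-19). Its counterpart on chromosome 19, arahy.PIAF8F.1, fell less far, by 3.37 on the log2 scale, with 19.0 ± 1.75 FPKM in WT apex (n = 3) and 206 ± 6.34 in leaflets (n = 6).

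For L24, the copy on chromosome 18 (arahy.KVK1VL.1, 16145120 to 16148492) stood at 7.96, 7.51 and 8.78 FPKM in WT apex, against 134, 127 and 129 in terminal leaflet and 130, 136 and 142 in lateral leaflet. Every apex library was below every leaflet library, and the log2 change was -3.88 (SE 0.0559, limma adjusted p = 4.48e-17). The copy on chromosome 8, arahy.WIG9V3.1, changed by -3.27.

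The L5 rows changed by -3.74 on chromosome 14 (arahy.S0M071.1) and by -3.59 on chromosome 4 (arahy.XQ5AKE.1). Both stood at about the same level in WT apex, 11.9 ± 1.69 and 11.1 ± 0.667 FPKM (n = 3), while leaflets held 171 ± 7.62 and 144 ± 4.78 FPKM (n = 6). L18, the other 5S rRNA partner on the list, had 5 rows, all lower in WT apex, with log2 changes from -2.92 to -2.05.

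The L29 row arahy.Q6429D.1 (chromosome 3, 137668937 to 137671056) stood at 14.4, 12.9 and 14.3 FPKM in WT apex, against 174, 197 and 202 in terminal leaflet and 198, 183 and 174 in lateral leaflet. The libraries did not overlap, and the log2 change was -3.67 (SE 0.0765, limma adjusted p = 3.84e-15). The copy on chromosome 13, arahy.K43FII.1, changed by -3.52.

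Summed over the rows of 1 name, the spread among proteins was wide. Among 38 protein names with at least 10 FPKM in leaflets, WT apex held a median of 14.9% of the leaflet level (quartiles 11.2% and 18.8%), and 30 names were under 20%. The lowest shares were 7.29% for L5, 7.36% for L4, 7.96% for L24, 8.30% for L29 and 9.48% for L34. Among 30S proteins the lowest were S16-1 and then S10 at 11.8%, and S17, an early binder of 16S rRNA in bacteria, stood at 21.9%. The single 30S row with the largest fall was one of S1, which binds messenger RNA at initiation in bacteria (arahy.2F4DQW.1, chromosome 1), at 4.31, 4.61 and 5.23 FPKM in WT apex, against 60.8, 64.01 and 66.3 in terminal leaflet and 61.96, 61.7 and 62.96 in lateral leaflet. In petiole the median share of the 38 names was 33.99% of the leaflet level, with L5 at 16.2% and L4 at 17.4% again lowest.

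**Figure D2:**
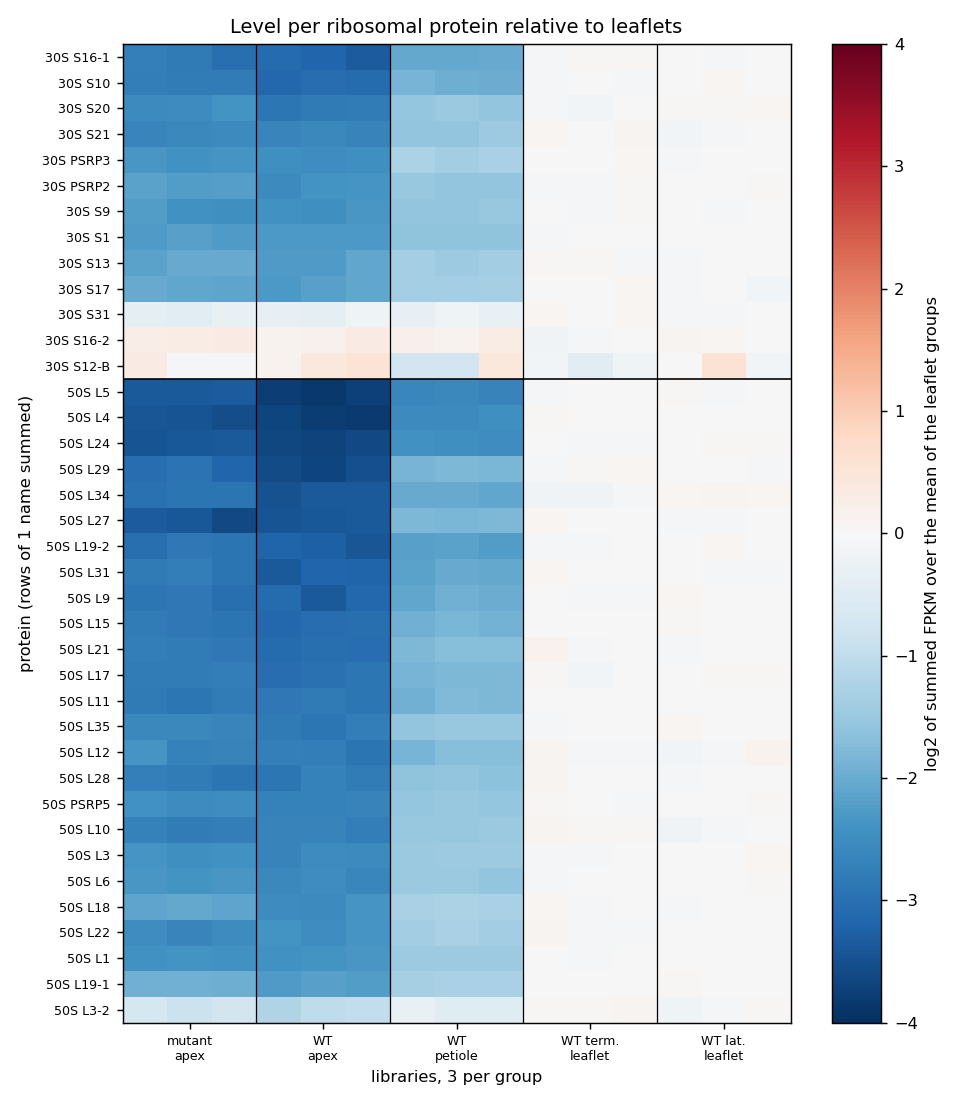
Level of 38 chloroplast ribosomal proteins in the 15 libraries, as log2 of the summed FPKM over the mean of the leaflet groups (colour scale from -4 to 4). Rows are proteins, with 30S above the line and 50S below it, each sorted by the share in WT apex with the lowest on top, and columns are libraries in groups of 3. Most rows are dark blue in both apex groups and lighter in petiole, while L3-2, S31, S16-2 and S12-B, at 47.8% to 130% of the leaflet level in WT apex, are pale.

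A small number of rows stood outside the gradient. The S16-2 rows, whose product is a second form of the small-subunit assembly protein S16, were level or higher in WT apex. Their protein matches are named chloroplastic/mitochondrial, so these rows need not serve the chloroplast ribosome alone. The row on chromosome 1 (arahy.TVN50Z.1) stood at 18.0, 16.0 and 19.8 FPKM in WT apex, against 13.8, 13.5 and 15.1 in terminal leaflet and 16.99, 15.7 and 14.3 in lateral leaflet. The ranges met only through 1 lateral leaflet library, above the lowest apex library, and the row was higher in WT apex (log2 change 0.25, SE 0.0688, limma adjusted p = 0.00386). Its copy on chromosome 11 (arahy.24WPAI.2) was also higher by the test, by 0.15 (SE 0.0478, limma adjusted p = 0.00881), with overlapping libraries, and without WT apex replicate 2 or 3 the adjusted p was 0.0526 or 0.0578. By contrast S16-1, arahy.S7RYVI.1 on chromosome 1, stood at 13.7, 12.7 and 11.5 FPKM in WT apex, against 108, 120 and 118 in terminal leaflet and 117, 112 and 114 in lateral leaflet. It followed the gradient, with a log2 change of -3.09 (SE 0.0567, limma adjusted p = 6.00e-16).

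S31, a small plastid-specific protein of the 30S subunit, was nearly level between the tissues. Its copy on chromosome 17 (arahy.C0BXE8.1) stood at 13.5, 13.1 and 14.9 FPKM in WT apex, against 19.1, 17.6 and 19.1 in terminal leaflet and 16.7, 17.6 and 17.7 in lateral leaflet. These libraries did not overlap, and the fall was small, by 0.35 on the log2 scale (SE 0.0549, limma adjusted p = 3.02e-05). The copy on chromosome 7 (arahy.CDY6H8.1) had 2.89 ± 0.225 FPKM in WT apex (n = 3) and 2.34 ± 0.251 in leaflets (n = 6). It was higher in WT apex by the test (log2 change 0.22, limma adjusted p = 0.0121), but not without WT apex replicate 3 (0.0702).

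Several S13 rows of low level also had a shallow slope on the fitted scale, which understates changes of low rows. S13 arahy.W3FNGG.1 on chromosome 13 had 9.09 ± 0.809 FPKM in WT apex (n = 3) and 15.1 ± 1.60 in leaflets (n = 6), a log2 change of -0.67, and arahy.D1ZLL8.1 on chromosome 10 had 2.23 ± 0.556 and 4.76 ± 0.840 FPKM, a change of -0.84. Both passed the test as lower in WT apex. In FPKM, the WT apex level of arahy.D1ZLL8.1 was 0.468 times that of leaflets. Not all low S13 rows were shallow, as arahy.BR1SHA.1 changed by -1.16, with 0.243 FPKM in WT apex and 1.85 in leaflets.

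The other plastid-specific proteins moved with the set. PSRP2, an RNA-binding protein of the small subunit, had 3 rows with log2 changes of -2.36, -2.04 and -2.48, all lower in WT apex. PSRP3, with 1 position listed as a pair of rows, changed by -2.41, and the PSRP5 rows of the large subunit changed by -2.88 and -2.40. In petiole these rows lay between apex and leaflets, with log2 changes against leaflets from -1.72 to -1.31.

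Of the 102 rows, 5 were not called between WT apex and leaflets. The S12-B row (arahy.4PHN98.1, chromosome 20, 180 bases long) stood at 19.6, 24.1 and 26.5 FPKM in WT apex, against 16.8, 13.4 and 15.9 in terminal leaflet and 18.2, 26.7 and 16.8 in lateral leaflet, with overlap (log2 change 0.38, SE 0.229, limma adjusted p = 0.14). In land plants S12 is usually encoded by the plastid itself. Fitted with the compared groups alone, this row passed the test (adjusted p = 0.0314). The others were 2 S13 rows that were at 0 in several libraries (arahy.67PGGN.1 and arahy.VZ45Z4.1), 1 of the L3-2 rows (arahy.IDQN4N.1) and another L29 row. That L29 row, arahy.MN5S5Z.1, lies on the opposite strand at 137670696 to 137674089 and overlaps arahy.Q6429D.1. It had 2.15 ± 0.806 FPKM in WT apex (n = 3) and 2.43 ± 0.422 in leaflets (n = 6). No source used here says that reads were counted by strand, so reads of the overlap cannot be assigned to either gene.

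**Figure D3:**
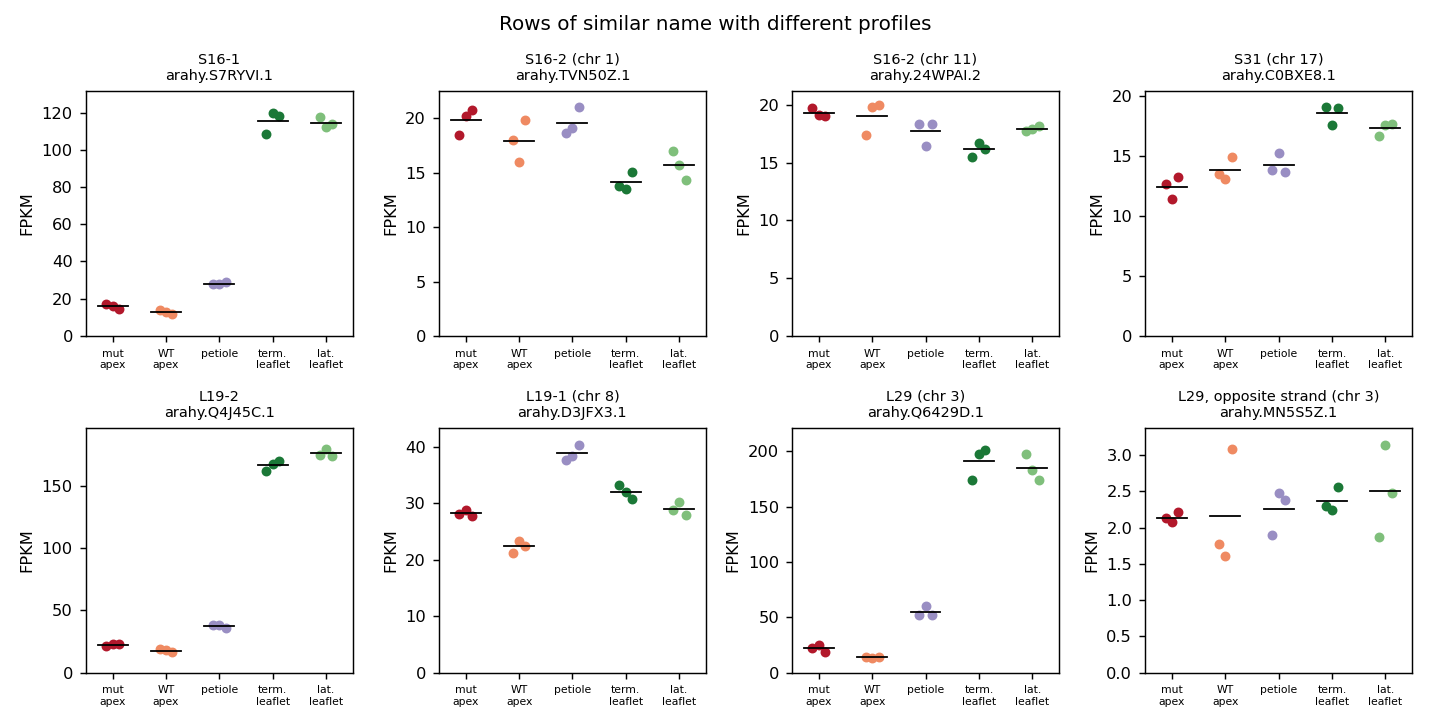
FPKM by library for 8 rows of related names, chosen after their values were seen. Each point is 1 library, lines are means of 3, and each panel has its own axis from 0. S16-1, L19-2 and the L29 row arahy.Q6429D.1 are several-fold higher in leaflets than in WT apex, whereas S16-2, S31, the L19-1 row on chromosome 8 and the L29 row on the opposite strand differ by less than 2-fold between group means.

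The petiole, which carries the leaflets and holds green cortex around vascular tissue, was intermediate. Of the 102 rows, 92 were lower in petiole than in leaflets, against a background of 44.1% of all genes, and 2 were higher, against 30.8%. The median row changed by -1.52, compared with -0.11 over all genes, with -1.33 for 30S and -1.64 for 50S rows, and 81 rows were called lower by at least 2-fold, against 11.3%. Quantile normalization moved the median of all genes to 0.02, with 38.7% of all genes higher and 35.0% lower, while 92 rows were lower and 4 higher. The vascular marker sum was 411 to 413 FPKM in petiole, against 218 to 223 in terminal leaflet and 218 to 221 in lateral leaflet. The sum was higher still in WT apex, at 436 to 441 FPKM, but most single markers went the other way. Of the tested vascular markers, 5 were higher and 41 lower in WT apex than in petiole, against 27.5% and 27.2% of all genes. The sieve element occlusion row arahy.89XXPU.1 alone had 111 FPKM in WT apex and 23.6 in petiole. Of 59 tested vascular markers, 34 were higher and 15 lower in petiole than in leaflets, against 30.8% and 44.1% of all genes. The part of vascular tissue in these differences was not tested.

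Of the 5 rows that fell most in petiole, 4 were L24, L4 and L5 rows described above. L24 arahy.KVK1VL.1 stood at 17.1, 18.4 and 17.1 FPKM in petiole, against the leaflet values above (127 to 142), a log2 change of -2.85 (SE 0.0559, limma adjusted p = 2.60e-15). L4 arahy.MB6FU1.1 stood at 26.8, 26.6 and 27.0 FPKM, a change of -2.75. L5 followed with -2.67 (arahy.XQ5AKE.1) and -2.51 (arahy.S0M071.1), and the L9 row on chromosome 13 (arahy.Q498P0.1) changed by -2.45.

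The S16-2 row arahy.TVN50Z.1 was higher in petiole, at 18.6, 19.1 and 21.1 FPKM, than in every leaflet library (13.5 to 16.99 FPKM, log2 change 0.38, SE 0.0688, limma adjusted p = 0.000169). The other rise was in L19-1 on chromosome 8 (arahy.D3JFX3.1, 37803123 to 37805502). L19 lies at the interface of the subunits in bacteria. This row stood at 37.7, 38.5 and 40.4 FPKM in petiole, against 33.2, 31.9 and 30.8 in terminal leaflet and 28.8, 30.3 and 27.9 in lateral leaflet. It was highest in petiole of all groups, with no overlap (log2 change 0.34, SE 0.0393, limma adjusted p = 1.6e-06). Its counterpart on chromosome 18 (arahy.171W8J.1) was at the same level in petiole and leaflets, 20.2 ± 0.651 (n = 3) and 20.2 ± 1.60 FPKM (n = 6). The other rows of the name family did follow the gradient. The L19-1 row on chromosome 11 (arahy.0UR0S2.1) changed by -2.24 between petiole and leaflets and by -3.26 between WT apex and leaflets. For the L19-2 row on chromosome 1 (arahy.Q4J45C.1) the changes were -2.16 and -3.22.

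Between WT apex and petiole, 85 of the 102 rows were lower in the apex, against a background of 27.2% of all genes, and 1 was higher, against 27.5%. This comparison and the ones with the leaflets share libraries and are not independent of each other. The median change was -1.05, compared with 0.01 over all genes, and 60 rows were called lower by at least 2-fold, against 2.21%. L29 led, with 14.4, 12.9 and 14.3 FPKM for arahy.Q6429D.1 in WT apex, against 52.3, 59.9 and 52.1 in petiole (log2 change -1.91, SE 0.0883, limma adjusted p = 2.29e-10). Its copy arahy.K43FII.1 changed by -1.65. L27, whose tail reaches the peptidyl transferase centre in bacteria, followed with -1.55 (arahy.C2TYHM.1, chromosome 10) and -1.52 (chromosome 20, 113835540 to 113837232), and then L18 with -1.47 (arahy.U7ILUP.1). L4 and L5, the lowest against leaflets, were less extreme here, at -1.37 and -1.09 for the L4 rows and -1.24 and -0.92 for the L5 rows. The row called higher was S12-B, with 23.4 ± 3.48 FPKM in WT apex and 15.1 ± 7.80 in petiole (n = 3 each), in overlapping libraries (log2 change 0.70, limma adjusted p = 0.0402). It lost the call in 7 alternatives, with adjusted p = 0.0565 with a replicate block and from 0.0928 to 0.155 without either of WT apex replicates 2 and 3 or petiole replicates 1 and 2.

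Taking the WT tissues in order, 82 of the 102 rows had every WT apex library below every petiole library and every petiole library below every leaflet library, against a background of 12.3% of all tested genes.

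**Figure D4:**
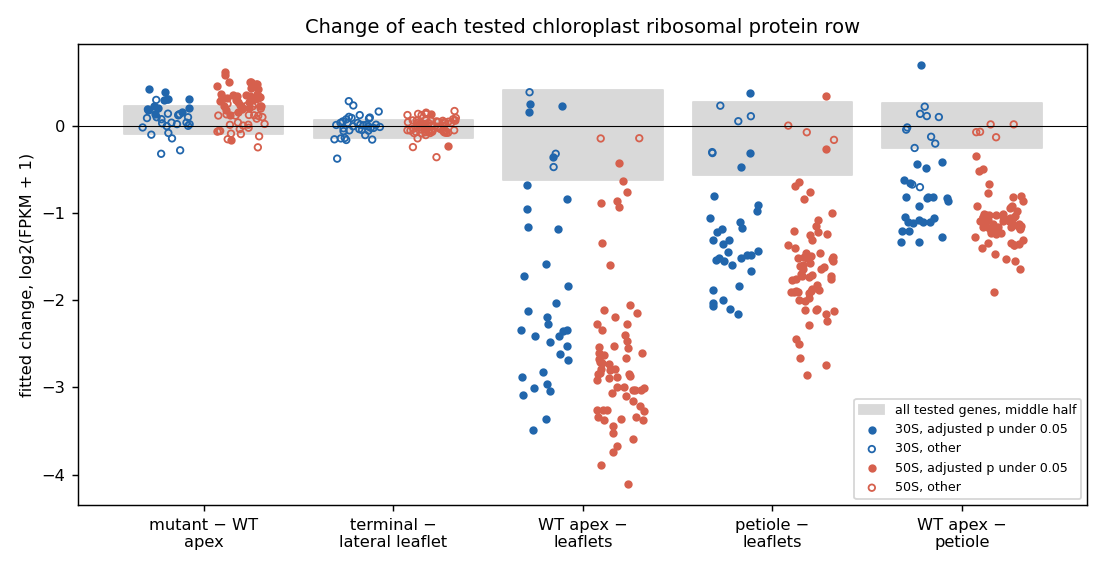
Fitted change on the log2(FPKM + 1) scale for the 102 tested rows in 5 comparisons, with 30S rows in blue and 50S rows in red. Filled points passed an adjusted p of 0.05 and open points did not, and grey boxes span the quartiles of all 39031 tested genes. The rows lie mostly below the box in the comparisons of apex and petiole with leaflets and of WT apex with petiole, mostly within it between the leaflets, and between -0.32 and 0.62 for mutant minus WT apex.

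Between mutant and WT apex the differences were small and mostly upward. Rows of L29, L34, L18 and L31, all of the large subunit, had the largest rises. Of the 102 rows, 48 were higher in mutant apex than in WT apex, against a background of 23.7% of all genes, and 1 was lower, against 11.9%. The median row changed by 0.18, compared with 0.07 over all genes. None of the 102 reached 2-fold on the fitted scale, with changes from -0.32 to 0.62. For 30S, 12 of 36 rows were higher (median 0.12), and for 50S, 36 of 66 were higher and 1 lower (median 0.23), a difference between subunits that was not tested. Of 38 proteins with a tested row, 11 had every tested row higher. With quantile normalization 38 rows were higher and 3 lower, against 17.7% and 15.7% of all genes.

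L29 showed the largest rise. Its row arahy.Q6429D.1 stood at 22.2, 24.6 and 18.9 FPKM in mutant apex, against 14.4, 12.9 and 14.3 in WT apex. All mutant libraries lay above all WT libraries, and the log2 change was 0.62 (SE 0.0883, limma adjusted p = 9.49e-05). Its copy on chromosome 13, arahy.K43FII.1, stood at 21.8, 22.5 and 21.1 FPKM in mutant apex, against 15.4, 15.2 and 15.5 in WT apex (log2 change 0.48, SE 0.0413, limma adjusted p = 6.52e-07). The groups were again apart, and the spread was smaller than in the first copy.

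L34 followed. The row on chromosome 13 (arahy.YBYE48.1, 61593203 to 61594805) stood at 3.89, 5.20 and 5.09 FPKM in mutant apex, against 2.46, 2.98 and 3.03 in WT apex, without overlap (log2 change 0.58, SE 0.138, limma adjusted p = 0.00487). The more abundant L34 row on chromosome 9 (arahy.N07IEU.1) was higher by 0.42, at 21.8 ± 0.562 FPKM in mutant apex and 16.0 ± 0.914 in WT apex (n = 3 each).

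L18 had 4 of its 5 rows higher. The row arahy.7J6TQU.1 on chromosome 20 stood at 37.3, 36.8 and 30.8 FPKM in mutant apex, against 25.4, 19.6 and 28.98 in WT apex, where the lowest mutant library was just above the highest WT library (log2 change 0.50, SE 0.107, limma adjusted p = 0.00238). A further row on chromosome 20, arahy.9LP875.1, was higher by 0.48, and the exception was arahy.U7ILUP.1 on chromosome 13, at 15.8 ± 1.34 FPKM in mutant apex and 14.9 ± 1.07 in WT apex (n = 3 each). The L31 position on chromosome 16 (154700240 to 154701747), listed as arahy.RSD13X.1 and arahy.T5GRUU.1, stood at 13.04, 12.8 and 11.7 FPKM in mutant apex, against 8.83, 9.13 and 7.72 in WT apex (log2 change 0.50, SE 0.056, limma adjusted p = 9.50e-06). L4 arahy.MB6FU1.1 and L5 arahy.XQ5AKE.1, among the rows that fell furthest from leaflets to WT apex, were higher in mutant apex by 0.44 and 0.46. In the small subunit S20, which binds 16S rRNA early, led with arahy.FY4UJ9.1 at 27.7 ± 1.93 FPKM in mutant apex and 20.3 ± 0.784 in WT apex (n = 3 each, log2 change 0.43, limma adjusted p = 6.13e-05).

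Some of the plastid-specific proteins were part of this. PSRP5 was higher in mutant apex in both rows, at 20.6 ± 0.738 FPKM in mutant apex and 16.9 ± 1.01 in WT apex for arahy.3R5KQS.1 (log2 change 0.27) and at 23.7 ± 1.02 and 21.1 ± 0.743 FPKM for arahy.U3TF2Z.1 (log2 change 0.16). PSRP2 was higher in 2 of 3 rows, by 0.31 for arahy.HME85M.1 and by 0.19 for arahy.XZ4G98.1. The call of arahy.XZ4G98.1 was marginal, in overlapping libraries (limma adjusted p = 0.0469). It was lost in several alternatives, among them quantile normalization (adjusted p = 0.116) and TPM (0.0718). The other PSRP2 row, arahy.I4LFHL.1, had 5.25 ± 0.780 FPKM in mutant apex and 5.24 ± 0.486 in WT apex. PSRP3 had 21.8 ± 0.751 FPKM in mutant apex and 20.3 ± 0.0462 in WT apex and did not pass the test (log2 change 0.10, limma adjusted p = 0.0812), and neither S31 row did.

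Summed by protein, the mutant apex held 146% of the WT apex level for L29, 137% for L34, 135% for L5, 132.1% for L31 and 131% for L18. At the other end were L22 at 91.7%, S31 at 93.8% and S12-B at 81.6%. L22, which like L4 lines the exit tunnel, supplied the single lower call. Its row arahy.900JYR.1 on chromosome 6 stood at 38.7, 35.6 and 37.6 FPKM in mutant apex, against 42.8, 38.7 and 44.0 in WT apex, with the highest mutant and the lowest WT library almost equal (log2 change -0.16, SE 0.0553, limma adjusted p = 0.0363). The call was lost in 7 alternatives, among them the fit without a filter on low values (adjusted p = 0.0572), the fit on the compared groups alone (0.0577), and without mutant replicates 2 or 3 (0.134 and 0.0668) or WT apex replicates 1 or 3 (0.105 and 0.135). The 4 other rows with the most negative changes, one each of S13, S12-B, L3-2 and L27, did not pass the test.

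Other markers moved between the apex groups too. The sums of apex, mesophyll (values above) and vascular markers were higher in mutant than in WT apex, without overlap. Single markers went both ways. Of 36 tested apex markers 16 were higher and 2 lower, and of 46 mesophyll markers 20 were higher and 7 lower. Of 59 vascular markers 24 were higher and 10 lower, and of 22 epidermis markers 1 was higher and 10 lower. The shares of all genes were 23.7% higher and 11.9% lower. The 107 vascular markers (laccases, secondary-wall cellulose synthases and sieve element occlusion proteins) reached 730 to 755 FPKM in mutant apex and 436 to 441 in WT apex. Of these, 44 were at 1 FPKM or more on average in mutant apex and 42 in WT apex, with 12 and 13 at 0. The 44 epidermis markers were lower, at 689 to 720 FPKM in mutant apex and 987 to 1057 in WT apex. Their part in the rise of the ribosomal protein rows was not tested. In the authors' deposited table, 58 of 104 listed rows of the set were higher in mutant over WT apex at a q-value under 0.05 and 2 were lower, against 32% and 17.2% of the 50858 genes listed there.

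Between terminal and lateral leaflet the set was close to level. Its sum averaged 13063 ± 216 FPKM in terminal leaflet and 13064 ± 152 in lateral leaflet (SD, n = 3 each). Of the 102 rows, 1 was higher in terminal leaflet, against a background of 5.63% of all genes, and 1 was lower, against 7.45%. The median change was -0.01, compared with -0.03 over all genes, and changes ran from -0.38 to 0.28. The higher row was L10 (arahy.23T474.1, chromosome 11), which anchors the stalk that recruits elongation factors. It stood at 276, 260 and 264 FPKM in terminal leaflet, against 231, 245 and 249 in lateral leaflet, without overlap (log2 change 0.14, SE 0.0394, limma adjusted p = 0.0289). The lower row was L34 arahy.N07IEU.1, at 160, 156 and 171 FPKM in terminal leaflet, against 187, 194 and 191 in lateral leaflet, also without overlap (log2 change -0.23, SE 0.0579, limma adjusted p = 0.0156). A second L34 row, arahy.YBYE48.1, had 30.1, 31.9 and 32.1 FPKM in terminal leaflet and 43.0, 40.6 and 38.0 in lateral leaflet, apart but not called (log2 change -0.36, limma adjusted p = 0.109). An L6 row on chromosome 12, arahy.R9SY1C.1, came next, with 18.9 ± 1.33 FPKM in terminal leaflet and 22.6 ± 0.920 in lateral leaflet (n = 3 each, log2 change -0.24, limma adjusted p = 0.0533).

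Both leaflet calls were sensitive. L10 lost its call in 7 alternatives, with adjusted p = 0.482 with quantile normalization, 0.0566 as TPM, and between 0.0551 and 0.127 without terminal replicates 1 or 3 or lateral replicates 1 or 2, and L34 lost its call without terminal replicates 1 or 2 or lateral replicate 2 (0.0521, 0.0662 and 0.0561). In the authors' deposited table, which sets lateral over terminal leaflet, 27 of 105 listed rows of the set were higher in lateral leaflet and 16 lower at a q-value under 0.05, against 16.2% and 10.5% of the 52535 genes listed there. With quantile normalization 5 rows were lower in terminal leaflet, against 5.89% of all genes called lower and 5.85% called higher.

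Other machinery for plastid gene expression was lower in WT apex as well. Of these lists all 25 tested plastid translation factors were lower in WT apex than in leaflets (median -2.05), and all 44 tested tRNA synthetases named chloroplastic or chloroplastic/mitochondrial (median -1.53), 34 of 36 plastid transcription genes (median -1.40) and 18 of 19 ribosome assembly genes (median -1.29), against 44.3% of all tested genes and an all-gene median of -0.09. These medians lie closer to 0 than the -2.62 of the ribosomal proteins, a difference that was not tested. Elongation factor Tu (arahy.J58ZSC.1), which delivers tRNAs, had 101 ± 2.61 FPKM in WT apex (n = 3) and 388 ± 7.84 in leaflets (n = 6). DEAD-box RNA helicase 3 (arahy.1W5AMY.1), known in Arabidopsis and maize for plastid ribosome assembly, had 42.1 ± 0.520 FPKM in WT apex (n = 3) and 177 ± 6.43 in leaflets (n = 6). All 8 tested GLK and GATA21/22-type regulators, which promote chloroplast development, were lower in WT apex (median -2.43), with GATA22 arahy.F7WS4I.1 at 0.203 ± 0.0777 FPKM in WT apex (n = 3) and 31.9 ± 1.06 in leaflets (n = 6).

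The ribosomal proteins of the cytosol and the mitochondrion are given beside them, and the differences between lists were not tested. The summed level in WT apex was 0.153 times that in leaflets for the chloroplast set, 0.208 times for its 30S and 0.136 times for its 50S rows, but 0.836 times for 434 cytosolic and 0.785 times for 35 mitochondrial ribosomal protein rows. It was 0.206 times for plastid translation factors and 0.310 times for light-harvesting and photosystem genes. Chloroplast ribosomal protein FPKM amounted to 5.68% to 5.90% of the cytosolic sum in mutant apex, 5.56% to 5.83% in WT apex, 8.62% to 8.79% in petiole, 28.8% to 30.8% in terminal leaflet and 31.9% to 33.1% in lateral leaflet. Of 363 tested cytosolic rows, 241 were lower and 60 higher in WT apex than in leaflets, with a median change of -0.28, against 44.3% lower, 35.3% higher and a median of -0.09 over all genes.

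Between the apex groups the sums of most of these lists were higher in the mutant. The summed level in mutant apex was 1.13 times that in WT apex for the chloroplast set, 1.12 times for cytosolic, 1.15 times for mitochondrial ribosomal proteins and 1.12 times for light-harvesting and photosystem genes. Among cytosolic rows 224 of 363 were higher and 8 lower in mutant apex (median 0.18), and among mitochondrial rows 11 of 31 were higher and the others not called (median 0.18), against 23.7% higher and 11.9% lower over all genes, with a median of 0.07. Plastid translation factors moved less, with a summed ratio of 0.963, 5 of 25 higher and 4 lower. The factor with the smallest p was PSRP1 (arahy.2GB72X.1), a ribosome-binding factor related to bacterial hibernation factors, at 11.1 ± 0.557 FPKM in mutant apex and 5.74 ± 0.570 in WT apex (n = 3 each, log2 change 0.84, SE 0.0745, limma adjusted p = 7.94e-07). Between the leaflets, 173 of 363 cytosolic rows were higher and 1 lower in terminal leaflet, and 27 of 62 light-harvesting and photosystem rows were higher and 1 lower, against 5.63% higher and 7.45% lower over all genes, with summed ratios of terminal over lateral of 1.10 and 1.18, whereas that of the chloroplast ribosomal set was 1.00.

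Levels within the set were uneven. The 4 most abundant rows held 25.7% of the summed leaflet level. L12 (chromosome 10, 8360498 to 8361073), the flexible stalk protein present in several copies per bacterial ribosome, had 1156 ± 87.3 FPKM in leaflets, and S17 (arahy.MEX591.1, chromosome 6) had 1059 ± 42.2 (SD, n = 6 each). L28 (arahy.ADZ0J4.1) had 657 ± 29.1 and L21 (arahy.11CA21.1) 484 ± 28.7 FPKM. The L28 transcript is only 233 bases long and S17 444, and the level per length of such short transcripts is less certain. At the low end were an S13 row on chromosome 10 (arahy.67PGGN.1) and one on chromosome 15 (arahy.BR1SHA.1), the L3-2 row arahy.39Z329.1 on chromosome 20 and the L9 row arahy.151HRH.1. These 4 reached between 0 and 3.01 FPKM in single libraries. S13, a protein of the head of the small subunit, had the most rows, 12, against 1 row for 8 names and 2 rows for 16 names.

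Pairs of copies from the A and B subgenomes were taken as members of identical name with 1 copy on a chromosome from 1 to 10 and 1 on its counterpart from 11 to 20. In 19 such pairs the median share of the B copy was 41.3% in mutant apex, 42.4% in WT apex, 41.8% in petiole, 44.2% in terminal leaflet and 45.01% in lateral leaflet. The A copy was higher in all 15 libraries in 9 pairs, the B copy in 2 (S13 on chromosomes 4 and 14, and S31 on 7 and 17), and 8 were mixed. With looser matching of names, chosen after seeing the data, the A copy was higher in all libraries in 10 of 29 pairs and the B copy in 6. L21 was the most uneven pair beside L3-2, with 5.33% to 8.84% from the B copy in single libraries. FPKM is a level per length, so shares of FPKM depend on the transcript lengths listed for the copies. For the A and B copies these are 905 and 4300 bases in L21, 4058 and 1516 in this S13 pair, and 2430 and 883 in S31. Which copy gave more fragments was not tested. The L3-2 pair, at 5.32% to 14.7%, is uncertain, because a further L3-2 row was not analysed here.

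Some pairs shifted between tissues. The B copy of S13 held 64.5% ± 1.58 in mutant apex, 61.7% ± 1.54 in WT apex, 70.6% ± 0.555 in petiole, 80.5% ± 0.363 in terminal leaflet and 79.6% ± 0.804 in lateral leaflet. The B copy of L24 held 34.4% ± 2.49 in mutant apex, 37.1% ± 1.71 in WT apex and 35.3% ± 1.80 in petiole, but 48.8% ± 0.960 in terminal and 48.5% ± 1.66 in lateral leaflet (SD, n = 3 each). In PSRP5 the order of the copies turned, with 55.6% from the B copy in WT apex and 46.0% in lateral leaflet. Over the 19 pairs the median size of the shift between WT apex and leaflets was 5.25 percentage points. Shares are descriptions, and how far copies share reads was not tested.

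**Figure D5:**
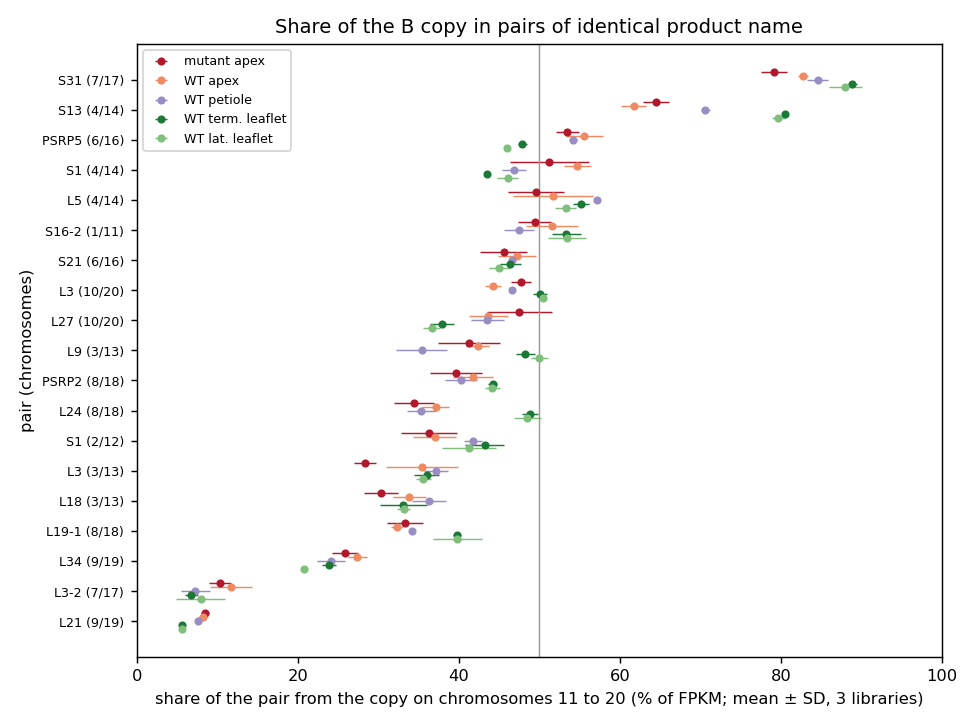
Share of the pair's FPKM that came from the copy on chromosomes 11 to 20, for 19 pairs of identical product name, with the mean ± SD of 3 libraries per group. The vertical line marks equal shares. S31 and S13 lie right of it in all groups, L21 and L3-2 lie far left, and for S13 and L24 the leaflet groups lie right of the apex and petiole groups.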

How the data were processed

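The authors deposited FPKM values for 59878 genes, per the file headers, printed to 2 decimals, with the log2 fold changes and q-values of their own comparisons. Every library column is given 2 times, with the same values, and 1 was used. The leaflet columns are abbreviated differently from the titles, and the tissue label linked them. No source used here gives the aligner or the counting tool. TAIR10 is named in the submitters' processing notes, whereas the gene identifiers have the form used for the peanut Tifrunner genome, and coordinates are printed as the file gives them. Per the labels' protocols, cDNA was made from total RNA by random priming and read on an Illumina HiSeq.

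Values were taken as log2(FPKM + 1), without genes that reached 1 FPKM in fewer than 3 libraries. Group means were fitted with limma 3.58.1 (trend and robust) in R 4.3.3 with the package data.table (version 1.17.8), and checked on simulated data. Tables and figures used Python 3.11.15, pandas 2.3.3 and matplotlib 3.10.9. Alternatives were a pseudocount of 0.1, no filter, quantile normalization, TPM, a replicate block, limma without trend, only the compared groups, each library left out, and rows of 1 position counted once. No pairing by replicate number was seen. After group means were removed, 0 of 30 correlations between same-numbered libraries were over 0.1 (from -0.0551 to 0.0503). Such correlations cannot show that same-numbered libraries came from different plants.

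The rule for named members took, per comparison, the 5 largest changes each way, called or not, the 6 most and 4 least abundant tested rows, and all plastid-specific proteins. Of other lists it took the gene with the smallest p. Further members, mostly copies of these, were chosen after their values were seen. Members and lists were chosen with earlier results of these data known. Lists match patterns in product names.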

Additional observations from a re-analysis of the deposited data

How the results depend on the processing

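The counts of rows called stayed within 1.5 times in 4 of the 5 comparisons under every alternative run, and no called change of a named member reversed its direction. The exception is terminal against lateral leaflet, where the count was 2 with all libraries, 5 (all lower) with quantile normalization, 1 with limma without trend and robust, 4 with only the compared groups, and 0 to 3 with each library left out. The median change of mutant against WT apex was 0.149 without a filter, 0.138 with quantile normalization and 0.146 to 0.196 with each library left out. The median of WT apex against leaflets was -2.69 with a pseudocount of 0.1, -2.54 without a filter, -2.59 with quantile normalization and -2.55 as TPM. For petiole against leaflets it was -1.56, -1.55 and -1.49 with a pseudocount of 0.1, quantile normalization and TPM, and for WT apex against petiole -1.10, -0.98 and -1.01. With looser matching of product names, chosen after seeing the data, 29 copy pairs had a median B share of 47.7% in mutant apex, 47.2% in WT apex, 46.6% in petiole, 48.3% in terminal and 48.7% in lateral leaflet. The cause of these shifts was not tested. With the replicate block, 50 rows were called for mutant against WT apex and 2 between the leaflets. It gave 97 for WT apex and 94 for petiole against leaflets, and 86 for WT apex against petiole. No pairing by replicate number was seen, and 3 of 15 libraries correlated best with their own number. Of 140 changes of named members, 22 changed their call in at least 1 alternative. Depth limits the rows under about 1 FPKM, which are at 0 in single libraries.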
